A study of Homo sapiens with 14 samples.

Results

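The MYC and MAX network of Jurkat cells was examined through 10 transcripts: *MYC*, *MYCN*, *MAX*, *MXD1*, *MXD3*, *MXD4*, *MXI1*, *MNT*, *MLX* and *MIR17HG*, the host of the miR-17 cluster. Members were taken by symbol from the deposited table, where each matched 1 Ensembl identifier, so they are 10 of 61541 genes, and all 10 were among the 18963 genes tested. Jurkat is an established human T-cell acute lymphoblastic leukaemia line, and polyadenylated RNA of 14 libraries in 5 groups was sequenced. DMSO libraries (n = 3) came from cells given the solvent, and KSRi libraries (n = 3) from cells given APS-2-79, an inhibitor of the kinase scaffold KSR. In the other arm, cells carried a non-targeting guide (NT, n = 2), *KSR2* guide 1 (n = 3) or *KSR2* guide 2 (n = 3). Titles call these guides CRISPR knockout, the design text calls them CRISPR interference, and the library names of NT read as a hairpin control. The labels read here give no dose, treatment time or time in culture with a guide, and they do not say whether guide cells were clones. Whether replicates are separate cultures is likewise unstated. The p-values therefore reflect the spread among these 14 libraries, and that spread may be technical.

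MYC and MYCN are transcription factors that bind DNA as partners of MAX, mostly at the E-box, and raise genes of ribosome production, nucleotide synthesis and glycolysis. MXD1, MXD3, MXD4, MXI1 and MNT pair with the same MAX and bring the SIN3 repressor with its histone deacetylases, so they act against MYC at shared sites. MLX is the MAX-like partner of MXD1, MXD4, MNT and the glucose sensor MondoA. In T-cell leukaemia *MYC* is a well-known target of NOTCH signalling. *MIR17HG* is a well-known target of MYC, and its microRNAs restrain genes such as *BCL2L11* and *CDKN1A*.

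The microRNAs of the *MIR17HG* transcript are shown first, because the host had the widest fall among the members and because a second host, *MCM7*, carries microRNAs with shared seeds. Sequences are from RefSeq (GRCh38.p14), written 5′ to 3′, with capitals for the seed, bases 2 to 8 from the 5′ end. *MIR17HG* carries 6 hairpins on chromosome 13, plus strand, and the mature arm shown for each is the following.

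hsa-miR-17-5p: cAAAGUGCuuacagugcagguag

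hsa-miR-18a-5p: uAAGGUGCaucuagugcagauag

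hsa-miR-19a-3p: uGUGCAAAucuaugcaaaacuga

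hsa-miR-20a-5p: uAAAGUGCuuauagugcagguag

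hsa-miR-19b-3p: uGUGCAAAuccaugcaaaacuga

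hsa-miR-92a-3p: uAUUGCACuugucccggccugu

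The 3 arms below lie on chromosome 7, minus strand, within *MCM7*, which encodes a subunit of the replicative helicase.

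hsa-miR-106b-5p: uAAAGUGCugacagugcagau

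hsa-miR-93-5p: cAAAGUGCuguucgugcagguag

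hsa-miR-25-3p: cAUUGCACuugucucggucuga

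The seed AAAGUGC is shared by miR-17-5p, miR-20a-5p, miR-106b-5p and miR-93-5p, and AUUGCAC by miR-92a-3p and miR-25-3p. GUGCAAA is shared by both miR-19 arms, which had no counterpart in *MCM7*. The libraries were made from polyadenylated RNA, and the table rows of all 6 hairpins of *MIR17HG* held 0 counts in all 14 libraries, so the values below are host transcript levels and say nothing of mature microRNAs.

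Library totals ran from 21710466 to 45897075 counts. Levels are given as CPM, that is counts scaled to a common library size after TMM scaling, and 3 counts correspond to at most 0.138 CPM. *KSR2* stood at 29.5 CPM in NT and at 0.541 and 0.766 CPM with guides 1 and 2, and it was 37.0 CPM in DMSO and 34.3 CPM in KSRi. All 11 T-cell and T-ALL markers examined were present, at summed levels of 2125 to 2787 CPM in KSRi and 1947 to 2269 CPM in the other 4 groups. Of 11 markers of B, myeloid, erythroid, epithelial and stromal cells, 3 were at 0 in all libraries and 9 stayed under 1 CPM. *CD79A* (22.3 CPM in DMSO and 57.3 CPM in NT) and *COL1A1* (6.24 CPM in DMSO and 10.8 CPM in KSRi) were the remaining 2, and the summed level was 28.2 to 36.6 CPM in DMSO and KSRi and 51.7 to 75.9 CPM in the guide arm. Their part in the results was not tested. KSRi replicate 1 was the KSRi library nearest to the DMSO mean for 60.3% of the genes called with the inhibitor. The mitochondrial share of counts was 2.51%, 2.06% and 1.12% in KSRi replicates 1, 2 and 3. In bulk RNA, fewer cells of a kind and less RNA per cell cannot be told apart.

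With the inhibitor, *MYC* fell while its antagonists *MXD1*, *MXD3* and *MXD4* rose, and *MIR17HG* fell most. The antagonists *MXI1* and *MNT* did not pass the test named below. *MGA*, an antagonist of MYC outside the members, fell (log2 change −0.42). In 8 of the 10 members the KSRi and DMSO libraries did not overlap. The share of all tested genes without overlap was not counted, so this number has no background. By edgeR's quasi-likelihood test at an adjusted p under 0.05, 4 members were higher and 3 lower in KSRi than in DMSO. The background was high, since 40.7% of all tested genes were called in this comparison, 22% higher and 18.7% lower. The members' median log2 change was −0.05 against 0.02 over all tested genes. With both guides 0 of the 10 members were called, and between the control groups, NT and DMSO, 8 were, beside 65.8% of all tested genes. KSRi replicate 1 was the KSRi library nearest to DMSO for 4 of the 7 called members.

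**Figure D1:**
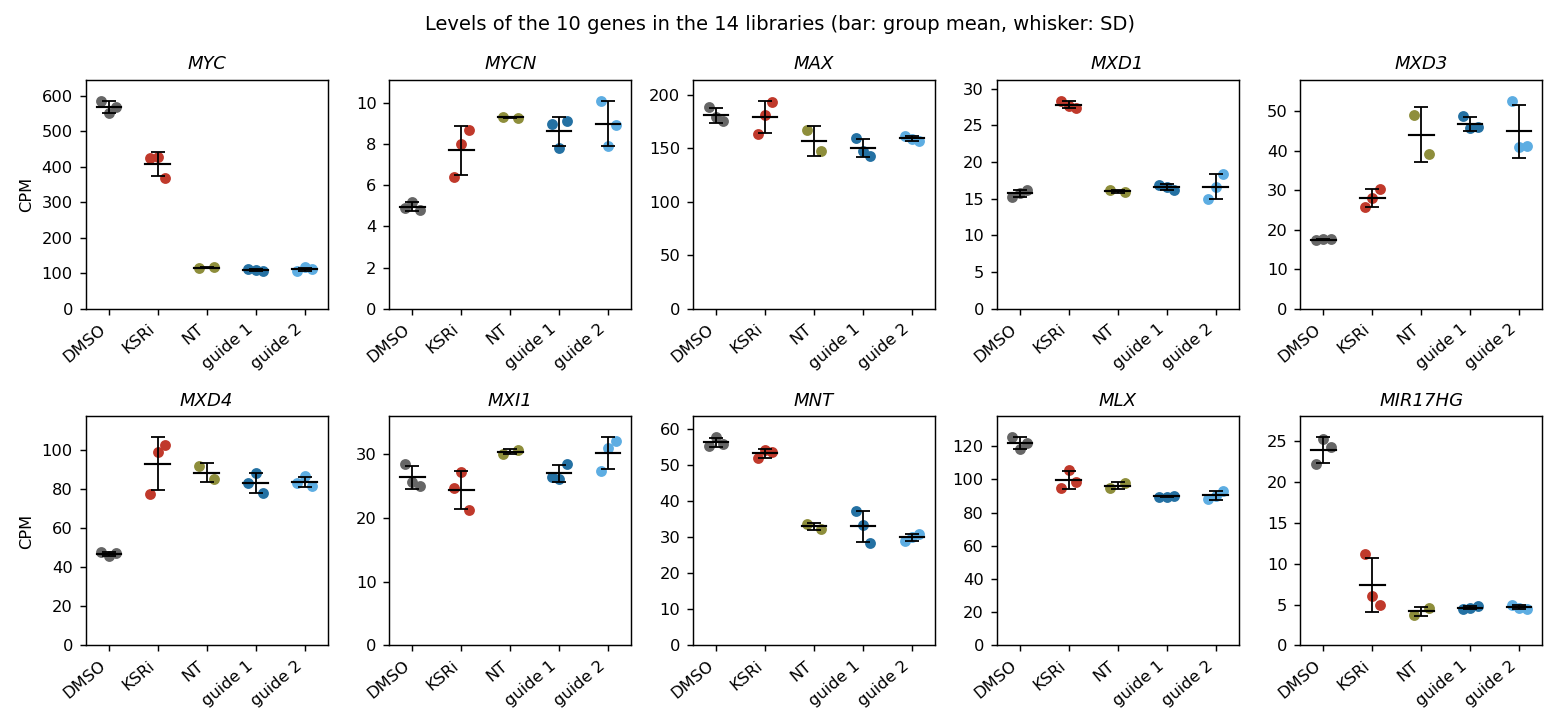
Levels in CPM (vertical axes, starting at 0) of the 10 members in each of the 14 libraries, by group. Each point is a library, bars are group means and whiskers are SDs. *MYC* lies between 551 and 586 CPM in DMSO, 369 and 428 CPM in KSRi, and 107 and 116 CPM in the guide arm.

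*MYC* (ENSG00000136997) had the highest group mean per exon length among the members in each group. In the guide arm *MAX* was close behind. *MAX* stood at 35.4, 33.9 and 35.9 CPM per kb in NT, guide 1 and guide 2, against 38.6, 36.4 and 37.2 for *MYC*. The *MYC* libraries read 586, 551 and 567 CPM in DMSO, 424, 428 and 369 CPM in KSRi, and 115 and 116 CPM in NT. With guide 1 it read 111, 109 and 107 CPM, and with guide 2 it read 108, 116 and 111 CPM. All KSRi libraries lay below all DMSO libraries, and all 8 libraries of the guide arm lay below both. Guide 2 overlapped NT and guide 1, and the guide 1 libraries lay below both NT libraries. The inhibitor left 71.7% of the DMSO level (log2 change −0.48, SE 0.07, 95% interval −0.62 to −0.34, edgeR adjusted p = 2.90e-05). NT held 20.4% of the DMSO level, a 4.90-fold difference (log2 −2.29, SE 0.08, edgeR adjusted p = 1.27e-12). The order of the group means was DMSO, KSRi, NT, guide 2 and guide 1. Guide 1 did not pass the test against NT (log2 −0.08, SE 0.08, edgeR adjusted p = 0.951).

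*MYCN* (ENSG00000134323), the neuronal relative of *MYC*, was scarce and went the other way. It read 4.90, 5.19 and 4.79 CPM in DMSO, 6.38, 7.99 and 8.70 CPM in KSRi, and 9.30 and 9.28 CPM in NT. It ran from 7.80 to 9.10 CPM with guide 1 and from 7.93 to 10.1 CPM with guide 2. Guide 2 overlapped NT, guide 1 lay below NT, and both guides overlapped the higher KSRi libraries. The rise with the inhibitor was 1.54-fold (log2 change 0.62 with an SE of 0.13, edgeR adjusted p = 0.000838). NT was 1.87-fold above DMSO (log2 0.91, SE 0.13, edgeR adjusted p = 1.43e-05). Per kilobase of exon *MYCN* stood at 1.91 CPM in DMSO against 189 for *MYC*, and at 3.57 against 38.6 in NT.

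*MAX* (ENSG00000125952; chromosome 14, 65006174 to 65102695), the shared partner, did not pass the test with the inhibitor. It read 188, 179 and 175 CPM in DMSO and 163, 181 and 193 CPM in KSRi, and these ranges overlapped. The log2 change was −0.01 (SE 0.07, 95% interval −0.17 to 0.14). In NT it read 167 and 147 CPM, below all DMSO libraries, and the log2 difference from DMSO was −0.20 (SE 0.08, edgeR adjusted p = 0.0384). That call was lost under the replicate block, under both other count filters and without DMSO replicate 1, DMSO replicate 2 or NT replicate 2, with log2 values of −0.06 to −0.30 over all alternatives.

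*MLX* (ENSG00000108788; chromosome 17, 42567068 to 42573239) fell by a small step. Its libraries read 125, 118 and 122 CPM in DMSO, 94.6, 105 and 98.5 CPM in KSRi, and 94.9 and 97.7 CPM in NT. KSRi and NT overlapped each other and lay below DMSO. The fall was 1.22-fold with the inhibitor (log2 change −0.29 with an SE of 0.06, edgeR adjusted p = 0.000959) and 1.27-fold in NT against DMSO (edgeR adjusted p = 0.00027). Exons of *MLX* share 770 bases with *PSMC3IP* on the other strand, a gene whose mean was 38.4 CPM in DMSO against 32.6 CPM in KSRi, and its part was not tested.

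Among the antagonists *MXD4* (ENSG00000123933; chromosome 4, 2247432 to 2262294) rose most with the inhibitor. It read 47.7, 45.6 and 47.3 CPM in DMSO, 77.7, 99.2 and 103 CPM in KSRi, and 92.0 and 85.3 CPM in NT. The DMSO libraries stood alone at the bottom, and KSRi, NT and both guides (78.2 to 88.2 CPM) overlapped. The rise was 1.99-fold with the inhibitor (log2 change 0.99 with an SE of 0.09, edgeR adjusted p = 2.92e-07). NT was 1.89-fold above DMSO (log2 0.92, SE 0.10, edgeR adjusted p = 3.20e-07).

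*MXD1* (ENSG00000059728; chromosome 2, 69897688 to 69942945) rose with the inhibitor, and NT did not differ from DMSO by the test. It read 15.2, 15.8 and 16.2 CPM in DMSO and 28.4, 27.7 and 27.4 CPM in KSRi. NT libraries read 16.2 and 15.9 CPM, overlapping DMSO, and the guides ran from 14.9 to 18.4 CPM. The 3 KSRi libraries stood apart from the other 11. The inhibitor's effect was 1.77-fold (log2 change 0.82 with an SE of 0.08, edgeR adjusted p = 6.73e-07). The log2 difference of NT from DMSO was 0.03 (SE 0.09, 95% interval −0.17 to 0.22, edgeR adjusted p = 0.819). Exons of *MXD1* share 237 bases with *SNRNP27* on the same strand, a gene at 25.9 CPM in DMSO, 24.7 CPM in KSRi and 20.8 CPM in NT.

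*MXD3* (ENSG00000213347; chromosome 5, 177301461 to 177312757) read 17.4, 17.7 and 17.6 CPM in DMSO, 25.9, 28.0 and 30.3 CPM in KSRi, and 49.1 and 39.2 CPM in NT. The 3 groups did not overlap, with NT highest. The rise was 1.59-fold with the inhibitor (log2 change 0.67 with an SE of 0.11, edgeR adjusted p = 0.000108), and NT was 2.51-fold above DMSO (log2 1.33, SE 0.12, edgeR adjusted p = 2.83e-08). Its exons share 1158 bases with *PRELID1* on the other strand and 926 bases with *RAB24* on its own. No source read here states whether counting used strand, so reads of these genes cannot be told apart with certainty. *PRELID1* was abundant and moved oppositely, from 226 CPM in DMSO to 188 CPM in KSRi and 86.1 CPM in NT, and *RAB24* stood at 0.457, 0.543 and 0.810 CPM.

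*MXI1* and *MNT* did not pass the test with the inhibitor. *MXI1* (ENSG00000119950; chromosome 10, 110207605 to 110287365) read 28.4, 25.6 and 24.9 CPM in DMSO and 24.6, 27.1 and 21.2 CPM in KSRi, overlapping, at a log2 change of −0.10 (SE 0.09). *MNT* (ENSG00000070444; chromosome 17, 2384060 to 2401118) read 55.3, 57.7 and 55.8 CPM in DMSO and 51.8, 54.3 and 53.6 CPM in KSRi. These *MNT* ranges did not overlap, but the difference was small (log2 change −0.08 with an SE of 0.08, edgeR adjusted p = 0.46). NT was lower in *MNT*, at 33.7 and 32.4 CPM (1.70-fold, log2 −0.77, SE 0.09, edgeR adjusted p = 1.63e-06). *MXI1* in NT was 30.0 and 30.6 CPM, a log2 difference from DMSO of 0.21 (SE 0.10, edgeR adjusted p = 0.0842). It passed under the filter of 5 CPM (log2 0.35, edgeR adjusted p = 0.00682) and with only the groups compared (0.24, edgeR adjusted p = 0.0132).

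The balance of antagonists to *MYC* was then described per exon length, which allows genes to be set side by side. The union of annotated exons was used as length, so the values are approximate where Jurkat cells use shorter isoforms. Only the 5 antagonists among the members were summed, so *MGA*, a MAX partner that also acts against MYC, was left out. Per kilobase *MGA* read 10.3 CPM in DMSO, above each of the 5 (at most 6.64, *MXD4*). It was 7.72 in KSRi and 6.45 in NT, so it went down where the sum went up. In DMSO the 5 antagonists summed to 24.7 ± 0.306 CPM per kb (SD, n = 3), in KSRi to 34.4 ± 2.28 (n = 3) and in NT to 34.0 ± 2.07 (n = 2). Divided by *MYC*, this sum was 0.128, 0.134 and 0.129 in the DMSO libraries. It was 0.225, 0.252 and 0.288 in KSRi, and 0.924 and 0.840 in NT. Guide 1 libraries lay between 0.894 and 0.920 and guide 2 libraries between 0.851 and 0.938, overlapping NT. Leaving out *MXD3* gave mean ratios of 0.112 in DMSO, 0.215 in KSRi and 0.660 in NT. Leaving out *MNT* as well, whose exons share 1065 bases with an antisense gene under 1 CPM, gave 0.0784, 0.0791 and 0.0775 in DMSO, 0.147, 0.170 and 0.191 in KSRi, and 0.575 and 0.548 in NT, in the same order. The genes then left were not free of overlap either. *MXD1* shares 237 exon bases with *SNRNP27*, and *MXI1* shares 205 with an antisense gene. The sums of the 5 antagonists overlapped between KSRi and NT, whereas *MYC* stood at 136 CPM per kb in KSRi and at 38.6 in NT.

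**Figure D2:**
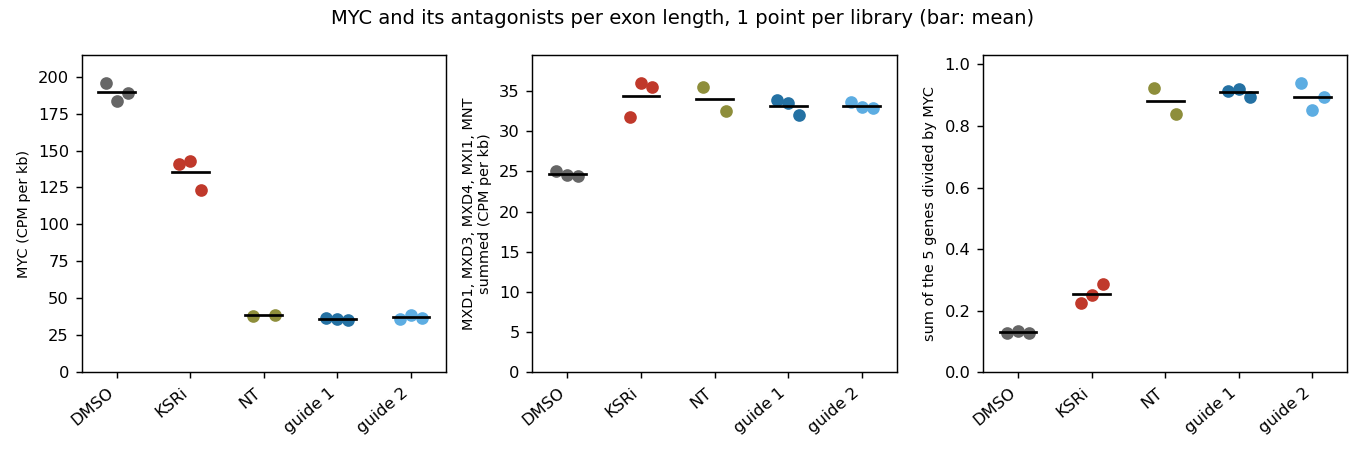
Level per kilobase of exon of *MYC* (left), of the 5 antagonists among the members summed, without *MGA* (middle), and their quotient (right). There is 1 point per library, and bars are group means. The quotient is lowest in DMSO (mean 0.130), next in KSRi (0.255) and highest in NT (0.882) and the guides (0.909 and 0.894).

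*MIR17HG* (ENSG00000215417; chromosome 13, 91347820 to 91354579) fell most. It read 22.2, 25.2 and 24.2 CPM in DMSO, 11.1, 6.05 and 5.00 CPM in KSRi, and 3.73 and 4.58 CPM in NT. With guide 1 it read 4.41, 4.58 and 4.78 CPM, and with guide 2 4.93, 4.59 and 4.43 CPM. DMSO stood apart on top, and KSRi replicate 1 lay between DMSO and the other 2 KSRi libraries, which were close to the guide arm. The fall was 3.19-fold with the inhibitor (log2 change −1.67, SE 0.18, 95% interval −2.06 to −1.29, edgeR adjusted p = 2.35e-06). Without KSRi replicate 1 the log2 change was −2.08. NT stood 5.70-fold below DMSO (log2 −2.51, SE 0.22, edgeR adjusted p = 3.94e-08).

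Other microRNA host transcripts moved in both directions. Of 16 on the list 12 were tested, and with the inhibitor 2 were higher and 5 lower, *MIR17HG* included. That is 58.3%, beside 40.7% of all tested genes, and the list's median log2 change was −0.07. *MCM7*, which carries the seeds shared with miR-17-5p and miR-92a-3p, read 769, 701 and 767 CPM in DMSO and 583, 776 and 898 CPM in KSRi. For *MCM7* the log2 change of 0.01 had an SE of 0.11 and a 95% interval from −0.23 to 0.25 (edgeR adjusted p = 0.943). In NT *MCM7* was lower, at 375 and 355 CPM (log2 −1.03, SE 0.13). *DLEU2*, host of miR-15a and miR-16-1, fell from 90.9 to 47.4 CPM (log2 change −0.94 with an SE of 0.10, edgeR adjusted p = 1.97e-06). *MIR29B2CHG*, host of a miR-29 pair, fell from 38.8 to 21.6 CPM (log2 change −0.84, edgeR adjusted p = 2.73e-05), while NT differed from DMSO by −0.00 (edgeR adjusted p = 0.989). *SMC4*, host of miR-15b and named after its values were seen, read 450, 228 and 221 CPM in KSRi beside a DMSO mean of 544 CPM, so KSRi replicate 1 again lay nearest to DMSO. *MIR223HG* rose from 2.63 to 4.89 CPM with the inhibitor (log2 change 0.89) and stood at 60.6 CPM in NT.

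**Figure D3:**
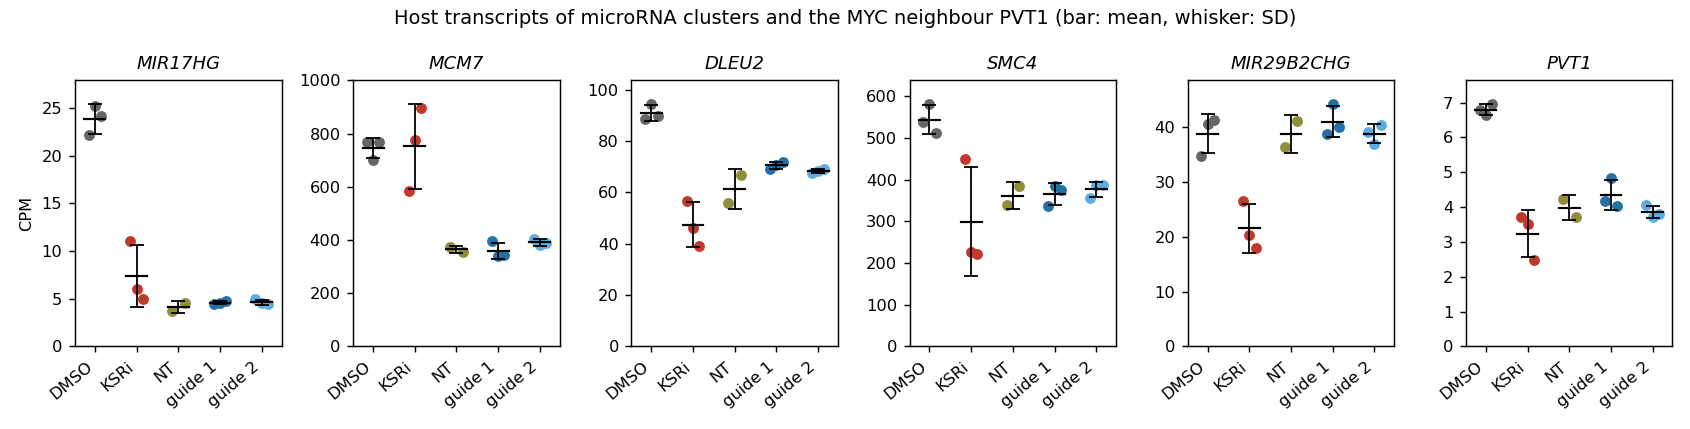
Levels in CPM of 5 microRNA host genes and of *PVT1* in each library, with bars for group means and whiskers for SDs. *MIR17HG*, *DLEU2*, *SMC4*, *MIR29B2CHG* and *PVT1* are lower in all 3 KSRi libraries than in all DMSO libraries, whereas *MCM7* in KSRi (583 to 898 CPM) spans its DMSO range.

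The chromosomal surroundings of *MIR17HG* held few expressed genes. The 3 nearest tested genes on the proximal side were *PTMAP5* (9.66 Mb away), *LINC00377* and *SPRY2*, and on the distal side *DCT* (3.08 Mb away), *TGDS* and *GPR180*. *PTMAP5* fell by 0.58, *TGDS* by 0.35 and *GPR180* by 0.22 on the log2 scale with the inhibitor (edgeR adjusted p = 0.00289, 0.00303 and 0.0239). *SPRY2*, an inhibitor of receptor tyrosine kinase signalling, changed by −0.20 (edgeR adjusted p = 0.0816). *DCT* and *LINC00377* stayed under 1 CPM.

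Near *MYC* on 8q24, 8 of 10 listed genes were in the table and 2 were tested. Both were called with the inhibitor, 1 higher and 1 lower, beside 40.7% of all tested genes called. *PVT1*, a long noncoding RNA gene beside *MYC*, read 6.78, 6.65 and 6.96 CPM in DMSO, 3.73, 3.53 and 2.47 CPM in KSRi, and 4.23 and 3.73 CPM in NT. *PVT1* fell 2.05-fold with the inhibitor (log2 change −1.03 with an SE of 0.13, edgeR adjusted p = 8.86e-06), while NT differed from DMSO by a log2 value of −0.78 (SE 0.14). The highest KSRi and the lowest NT library of *PVT1* both read 3.73 CPM, whereas the nearest *MYC* libraries of those groups read 369 and 116 CPM. *LRATD2* rose from 3.25 to 4.92 CPM with the inhibitor (log2 change 0.58 with an SE of 0.13, edgeR adjusted p = 0.00252).

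Genes that MYC is known to raise were mostly lower with the inhibitor. Of 40 listed and tested, 29 fell and 5 rose, so 72.5% were lower beside 18.7% of all tested genes, and their median log2 change was −0.42. The chaperonin gene *HSPD1* went from 1968 to 1151 CPM (log2 change −0.77 with an SE of 0.07, edgeR adjusted p = 2.24e-07). *NPM1*, which encodes a nucleolar protein, fell 1.69-fold, the lactate dehydrogenase gene *LDHA* 1.64-fold and the nucleolar gene *NOLC1* 1.68-fold. The 5 that rose, named after their values were seen, were *MTHFD2* (log2 change 0.73) and *SHMT2* (0.45) of mitochondrial folate metabolism, the amino acid transporters *SLC7A5* (0.38) and *SLC1A5* (0.25), and *CCND2* (0.51). In NT against DMSO 35 of the 40 were lower and 3 higher, with a median of −1.16, beside 31.2% of all genes lower. The list was drawn up with earlier results of these libraries known.

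Genes that MYC is known to restrain were mostly higher. Of 11 listed 10 were tested, 9 rose and 0 fell (median log2 change 0.91), beside 22% of all tested genes higher. *NDRG1*, a stress-responsive gene, went from 11.4 to 25.2 CPM (log2 change 1.14 with an SE of 0.13, edgeR adjusted p = 2.60e-06). The cell cycle inhibitor *CDKN1A* rose from 1.90 to 4.42 CPM (2.29-fold, edgeR adjusted p = 1.42e-05). *GADD45A* rose 2.01-fold and *CLU*, which encodes clusterin, 1.95-fold. In NT against DMSO 7 were higher and 1 lower, beside 34.6% of all genes higher. *GADD45A* in NT differed from DMSO by −0.07 (edgeR adjusted p = 0.7), and *CLU* differed by −1.36 (edgeR adjusted p = 9.60e-05).

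Partners, cofactors and regulators of MYC protein were more often lower than higher with the inhibitor. Of 20 partners and cofactors 19 were tested, with 3 higher (15.8%) and 7 lower (36.8%) and a median log2 change of −0.15, beside 22% higher and 18.7% lower among all tested genes. *MGA*, a large MAX partner that acts against MYC, fell from 182 to 136 CPM (log2 change −0.42, SE 0.09). The deacetylase gene *HDAC2* changed by −0.36 and the acetyltransferase genes *KAT2A* and *KAT5* by −0.31 and 0.49. Of 16 genes of MYC protein turnover 1 rose (6.25%) and 6 fell (37.5%), with a median of −0.05. The deubiquitinase gene *USP36* fell by 0.58 on the log2 scale, the mitotic kinase gene *PLK1* by 0.64 on the log2 scale and the ubiquitin ligase gene *SKP2* 1.37-fold, and in the other direction the kinase gene *GSK3B* rose (log2 change 0.35). In NT against DMSO 15 of these 16 were lower (93.8%), beside 31.2% of all tested genes. For MLX with MondoA 3 of 4 targets were tested and 2 were called (66.7%), beside 40.7% of all tested genes. The target not called, *TXNIP*, was named after its values were seen. It stood under 1 CPM in DMSO and KSRi (log2 change −0.59, edgeR adjusted p = 0.156). *ARRDC4*, an arrestin-domain gene, fell from 6.02 to 3.81 CPM (log2 change −0.65), and *KLF10*, a zinc finger gene, rose (0.44).

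Reported targets of the miR-17 cluster moved both ways. *CDKN1A* and *THBS1* are also on the list of MYC-restrained genes. Of 23 listed 21 were tested, with 7 higher (33.3%) and 4 lower (19%), beside 22% higher and 18.7% lower among all tested genes. Their median log2 change was 0.07 beside 0.02 for all tested genes. After *CDKN1A*, the lowest p values belonged to *PPP2R5E* (log2 change −0.34), *STAT3* (0.36) and *PRKAA1* (−0.29), which encode a phosphatase subunit, a transcription factor and the kinase AMPK's catalytic subunit. *BCL2L11* (0.07, SE 0.07), which encodes a pro-apoptotic protein and was named after its values were seen, did not pass the test.

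**Figure D4:**
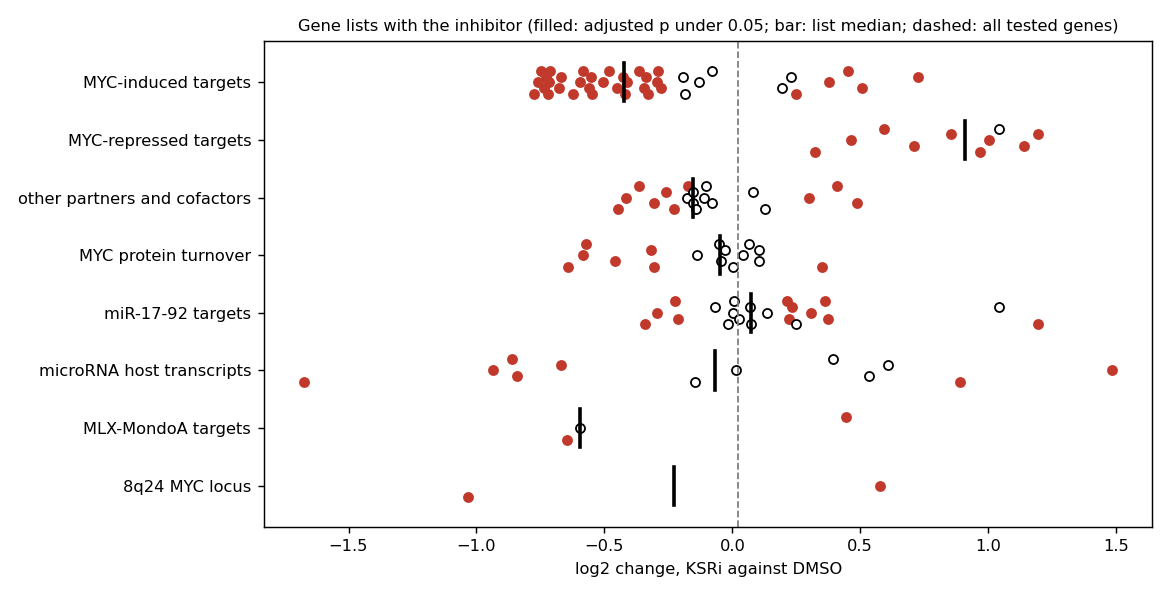
Log2 change of each tested gene, KSRi against DMSO (horizontal axis), for 8 gene lists. Filled points passed the edgeR test at an adjusted p under 0.05, bars are list medians and the dashed line is the median of all tested genes (0.02). The list of MYC-induced genes centres at −0.42 and that of MYC-restrained genes at 0.91.

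The E-box CACGTG, the same on both strands, was searched in RefSeq promoter windows (GRCh38.p14) of 250 bases before to 50 after each start. A window was at hand for 9 members (12 windows), all but *MYC*, which was therefore not searched. The *MIR17HG* window held 0 copies of the motif. The windows of *MXD4*, *MNT* and *MLX* held it, beside 7.26% of all 35116 windows. These stretches are shown because they place the network's own binding word before 3 of its genes, with the motif in capitals and each on the strand of its gene. They lie at chr4:2262330-2262359, chr17:2401236-2401265 and chr17:42567038-42567067, and the motif begins 238, 193 and 50 bases before the start.

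MXD4: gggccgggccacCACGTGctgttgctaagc

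MNT: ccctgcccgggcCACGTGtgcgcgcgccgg

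MLX: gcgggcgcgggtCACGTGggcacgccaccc

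With the inhibitor these 3 genes differed in direction, since *MXD4* rose, *MLX* fell and *MNT* did not pass the test. A match is a word in the sequence and not evidence of binding.

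The guides were examined to see what loss of *KSR2* transcript did to the network, and 0 of 10 members passed the test. Guide 1 called 0.00527% of all tested genes against NT, guide 2 called 0.0105%, the mean of both guides 0.0158%, and guide 2 against guide 1 0.00527%. At an unadjusted p under 0.05 the number of members was 0 in each of these 4 comparisons, and DESeq2 and limma-voom also called 0. For *MYC* the log2 change with both guides was −0.07 (SE 0.07, 95% interval −0.21 to 0.07), which on the linear scale is 0.865 to 1.05 times the NT level. For *MIR17HG* it was 0.14 (SE 0.21, 95% interval −0.31 to 0.59), the widest interval of the members. *MXD4* (−0.09, SE 0.09), *MLX* (−0.10, SE 0.06) and *MXD1* (0.05, SE 0.08) also lay near 0, and for *MLX* alone all 6 guide libraries lay below both NT libraries. Taken singly, guide 1 did not overlap NT at 4 members and guide 2 at 2. With so few libraries per group, such separation can arise without an effect of a guide. Its share over all tested genes was not counted. With both guides averaged, the intervals of the 10 members reached from −0.32 (*MYCN*) to 0.59 (*MIR17HG*). They reached from −0.38 to 0.63 with guide 1 and from −0.35 to 0.64 with guide 2. A member could thus have changed within its own interval without being called.

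The difference between the inhibitor's and the guides' effects passed the test for 6 members, beside 28.6% of all tested genes. The guides' reference, NT, already differed from DMSO for most of the members, with 3 higher and 5 lower. Among all tested genes 34.6% were higher and 31.2% lower in that comparison. The solvent, the guide vector and the culture of each arm differ together, so they cannot be told apart.

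**Figure D5:**
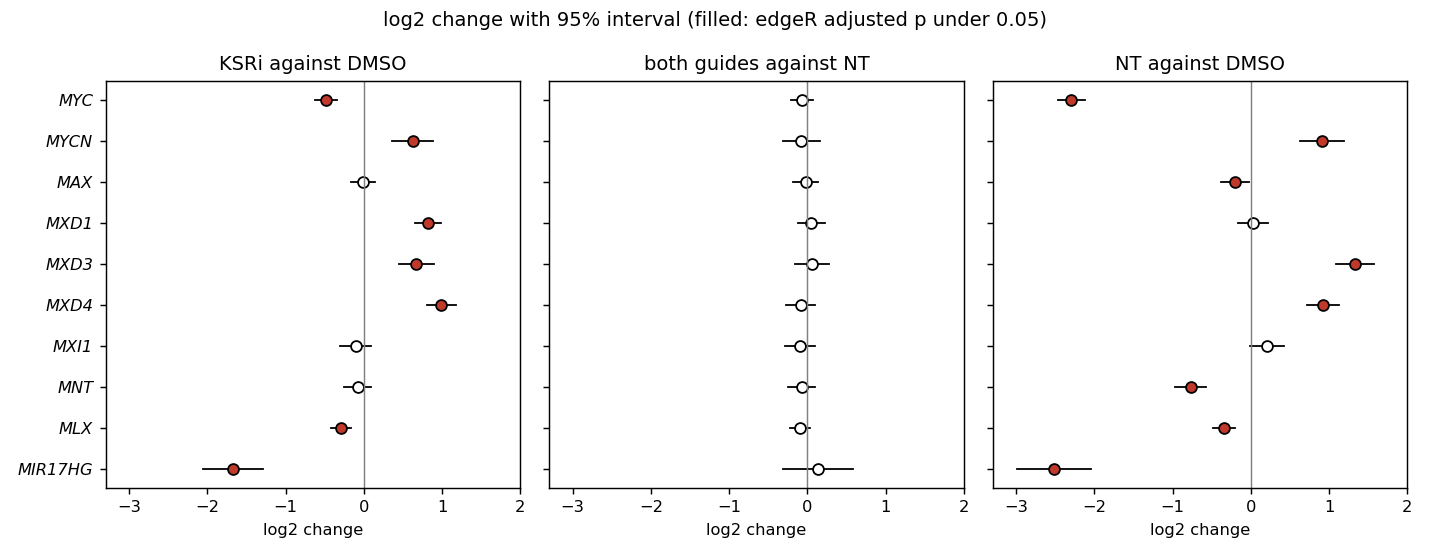
Log2 change of each member with its 95% interval (horizontal axes) for the inhibitor, for both guides averaged and for NT against DMSO. Filled points passed the edgeR test. With the guides all 10 points lie between −0.10 and 0.14, whereas *MIR17HG* is at −1.67 with the inhibitor and at −2.51 in NT.

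Genes with the pattern most like 2 of the members were sought by Pearson correlation of log2 CPM over the 14 libraries, among 11062 genes of at least 5 CPM with a symbol. For *MYC* the closest were *NOM1* (r = 0.998), *DLAT* (0.998), *ATP5MC1* (0.997), *PSMD1* (0.997) and *SELENOI* (0.997). *PSMD1*, a proteasome subunit gene, stood at 277, 216 and 72.1 CPM in DMSO, KSRi and NT. For *MIR17HG* they were *PUM3* (r = 0.993), *DHX36* (0.991), *NOC3L* (0.990), *ZFAS1* (0.990) and *SNX5* (0.989). *PUM3*, which encodes a nucleolar RNA-binding protein, stood at 122, 56.0 and 37.9 CPM. These values describe the distance between groups more than variation within them, since libraries of a group share treatment and guide.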

How the data were processed

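Polyadenylated RNA of 14 Jurkat libraries was measured. The table that the authors deposited holds raw counts, whole numbers for each Ensembl identifier. STAR 2.7.11b, DESeq2 1.42.1 and the build GRCh38 are named, per the submitters' processing notes. No source used here gives the counting program, annotation or strand setting. Symbols were found for 61369 of 61541 identifiers. Positions and exon lengths are from GENCODE 29 (GRCh38).

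Counts were fitted with edgeR 4.0.16 in R 4.3.3, with TMM factors, filterByExpr (18963 genes tested), 1 mean per group over all 14 libraries, the quasi-likelihood F test and Benjamini-Hochberg adjustment over all tested genes. All replicate pairs differed beyond counting noise (chi-square divided by its degrees of freedom, 5.83 to 49.9). Alternatives were RLE factors, 2 other filters, DESeq2 1.42.0, limma-voom (limma 3.58.1), only the groups compared, a replicate block, and each library left out. The fit was also run on simulated counts with known changes, whose outcome is not reported here and is not used as support. Members and lists were chosen with earlier results of these data known. Named genes are all members, up to 4 per list with the lowest p for KSRi against DMSO and at least 1 CPM, the 5 most alike, and the 3 nearest tested neighbours per side.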

Additional observations from a re-analysis of the deposited data

Results flagged for a closer look

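The effect of the inhibitor (KSRi minus DMSO) differed from that of the guides (mean of both minus NT) for 6 members by edgeR's interaction contrast. In that contrast 28.6% of all tested genes were called. The log2 differences of the effects were −0.41 for *MYC* (adjusted p = 0.00424), 0.70 for *MYCN* (adjusted p = 0.00538), 0.77 for *MXD1* (adjusted p = 0.000108), 0.62 for *MXD3* (adjusted p = 0.00502), 1.08 for *MXD4* (adjusted p = 1.03e-05) and −1.81 for *MIR17HG* (adjusted p = 0.00018). Without NT replicate 1 the value of *MXD3* was 0.45 and no longer passed (adjusted p = 0.0621). Both arms have their own controls, which themselves differed at 5 of these 6 genes, all but *MXD1*, beside 65.8% of all tested genes.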

How the results depend on the processing

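With the inhibitor all 7 called members kept their direction and call under each alternative, and 0 members were called with the guides under any. The *MLX* interaction passed under the 5 CPM filter (−0.211, adjusted p = 0.0295). The log2 change of *MYC* with the inhibitor ranged from −0.52 to −0.41 and that of *MIR17HG* from −2.08 to −1.50. Of the MLX and MondoA targets 1 was called under the filter of 5 CPM, against 2. That filter also moved the median difference of NT from DMSO by 0.14. The replicate block is no pairing by the labels: the numbers gave correlations of −0.25 to 0.34, and 1 of 6 libraries per comparison matched its own number best. With the replicate block 7 members were called with the inhibitor. All-gene calls for guide 1, guide 2 and both guides rose from 1, 2 and 3 to 35, 35 and 41 without a filter and to 9, 6 and 9 with DESeq2. For guide 2 against guide 1 they were 13 and 2, against 1, and 2 without guide 2 replicate 3. Without NT replicate 1 guide 1 called 5 and guide 2 called 4 genes, and without NT replicate 2 guide 1 called 3. Both guides called 1 gene with limma-voom and 1 to 3 without single guide libraries. Guide 1 called 2 genes with the replicate block, and the interaction fell from 5431 to 3366 genes without NT replicate 1.

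Changes of direction were seen at members not called. Under no filter and the 5 CPM filter the *MAX* interaction was −0.0128 and −0.00691. *MNT* with guide 1 was 0.00382 with no filter, 0.0144 with the 5 CPM filter, 0.00235 with only the groups compared and 0.0168 with the replicate block. Between guides the 5 CPM filter gave −0.00343 for *MLX*, −0.00399 for *MXD1* and −0.00460 for *MXD4*, and *MXI1* with guide 2 was 0.00141 under the replicate block. Leaving out each library gave these ranges. For *MAX* they were −0.113 to 0.072 with both guides, −0.155 to 0.0299 with guide 1, −0.0708 to 0.114 with guide 2, −0.0828 to 0.102 for the interaction and −0.0696 to 0.0502 with the inhibitor. For guide 2 against guide 1 they were −0.0253 to 0.0555 for *MIR17HG*, −0.00689 to 0.0293 for *MLX*, −0.0667 to 0.080 for *MXD1*, −0.19 to 0.00283 for *MXD3*, −0.0335 to 0.0555 for *MXD4*, −0.00135 to 0.055 for *MYC* and −0.0314 to 0.139 for *MYCN*. With guide 1 they were −0.094 to 0.096 for *MNT* and −0.0677 to 0.257 for *MXD3*. With guide 2 they were −0.0347 to 0.126 for *MXD1*, −0.128 to 0.197 for *MXD3*, −0.0641 to 0.0564 for *MXI1* and −0.138 to 0.0316 for *MYCN*. With both guides they were −0.00132 to 0.0856 for *MXD1* and −0.0978 to 0.227 for *MXD3*. For the interaction they were −0.0565 to 0.0384 for *MNT* and −0.103 to 0.0677 for *MXI1*. The cause was not tested.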
